A study of Rattus norvegicus with 78 samples.

Results

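Sperm RNA from rats given the germ cell toxicant DBCP (1,2-dibromo-3-chloropropane) was compared with sperm RNA from rats given the vehicle, corn oil, directly at the end of exposure. The arrays were chosen by their titles and by a recovery label of no, without use of any measured value: 20 DBCP arrays and 20 corn oil arrays, 40 of the 78 in the series. The other 38 arrays, taken after recovery, entered only the shared estimate of the spread. All rats were of the Fischer 344 strain. DBCP rats received 5 mg/kg/d for 3 months. The corn oil rats are labelled with the same 3 months of exposure and with no dose. The series is titled for the testis, whereas every array is labelled sperm. Per the labels' protocol, sperm were let out of the punctured cauda epididymidis into buffered saline, spun down, passed through an ammonium chloride lysis step and washed, and the RNA was split into large and small fractions. Each array is labelled a biological replicate, but the labels do not tie arrays to animals or say whether animals were pooled. The p-values below therefore set the group difference against the spread between arrays, which may not be that between animals. In the main fit this spread was pooled over all 78 arrays.

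DBCP is a former soil fumigant that is toxic to the testis. It is activated by cytochrome P450 enzymes and by conjugation to glutathione, and the products bind and break DNA. A mature sperm has condensed, protamine-packed chromatin and makes little or no new RNA; the transcripts it holds are mostly left over from the spermatid stage, when genes of the tail, acrosome and sperm-specific metabolism are read. Fluid let out of the cauda also holds cells of the duct and blood, whose RNA is measured along with that of sperm.

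The values are log2 levels of 29214 probe sets, from which 14506 genes were described, each by the probe set with 1 gene symbol that had the highest mean. Array medians ran from 6.59 to 6.75, and the correlation between any 2 of the 40 arrays ran from 0.874 to 0.988. Sperm transcripts stood at the top of the scale: among corn oil arrays the median was 13.02 for Prm1, which encodes a protamine, 14.14 for Odf1 of the tail's outer dense fibres and 14.18 for Smcp of the mitochondrial capsule. Transcripts of other cells were present too, with corn oil medians of 11.12 for Cd74 (antigen presentation), 12.02 for Hbb (beta globin), 10.32 for Dcn (connective tissue) and 8.48 for Adam7 (epididymal principal cells). Of the principal cell markers Lcn5, Crisp1, Cst8, Adam7, Gpx5 and Defb22, Adam7 was the brightest. Lcn5 and Gpx5 stood near the array medians on most corn oil arrays, and Defb22 stood below the lowest array median on all of them. The testicular markers Amh and Fshr of Sertoli cells had corn oil medians of 6.65 and 6.58, and Cyp17a1 and Insl3 of Leydig cells had 6.84 and 6.82, all near the array medians. In a bulk sample, fewer cells of a type and less RNA per cell cannot be told apart.

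DBCP replicates 2, 13 and 20 stood apart from the other 37 arrays. They were the only DBCP arrays with a weight under 0.5 when limma weighted each array by its agreement with its group. The mean level of 25 genes of sperm energy metabolism was 8.91, 9.36 and 8.80 on these arrays, against 7.70, 8.29 and 8.62 for the lowest, median and highest corn oil array. The main results below are therefore given with and without them. The labels and the table give no scan date or slide. In the deposit the replicate numbers 1 to 10 and 11 to 20 form separate runs of samples, and the labels do not say whether the runs were handled apart. Each set holds both treatments, so differences are also given within each set.

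No probe set differed between DBCP and corn oil after adjustment. In limma with Benjamini-Hochberg adjustment over all probe sets, 0 of 29214 (0%) passed an adjusted p of 0.05, and the lowest adjusted p was 0.103. At an unadjusted p under 0.05, 3386 probe sets (11.6%) were counted, 2020 higher (6.91%) and 1366 lower (4.68%) on DBCP arrays, where 1461 would be 5% of those tested. Among genes, 1407 of 14506 (9.7%) were higher and 620 (4.27%) were lower at that unadjusted level. Without DBCP replicates 2, 13 and 20, none of the 29214 passed and 1089 had an unadjusted p under 0.05, below the 1461 that make 5%. Among genes, 437 (3.01%) were then higher, 193 (1.33%) were lower and 49.7% stood above 0. Leaving out each array in turn gave 0 to 14 passing probe sets, with 14 without DBCP replicate 12, 10 without corn oil replicate 4 and 2 or fewer without any other array.

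The difference depended on the level of the gene. Over all genes the median difference, DBCP minus corn oil, was -0.01 and 44.7% of genes stood above 0. Genes were ranked by level and cut into 10 equal classes. In the lowest class the median was -0.06 and 20.4% stood above 0. In the highest class, from 7.88 to 14.13, the median was 0.13 and 80.0% stood above 0; there 562 genes had an unadjusted p under 0.05 and were higher, and 22 were lower. Quantile normalization of the deposited values brought the medians of these classes to -0.01 and 0.07, and leaving out the 3 arrays brought them to -0.02 and 0.06. Over all probe sets, unnamed ones included, the brightest 10% were less one-sided, with 52.6% above 0. The fit restricted to these called 206 of 2922 (7.05%), 205 higher (7.02%) and 1 lower (0.0342%). The class below it, from 7.44 to 7.88, had a median of 0.03, with 61.9% above 0 and 17.7% higher at an unadjusted p under 0.05, against 38.7% in the highest class. Several lists below hold many bright genes, so the counts of some of them are set beside these classes as well as beside all genes.

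**Figure D1:**
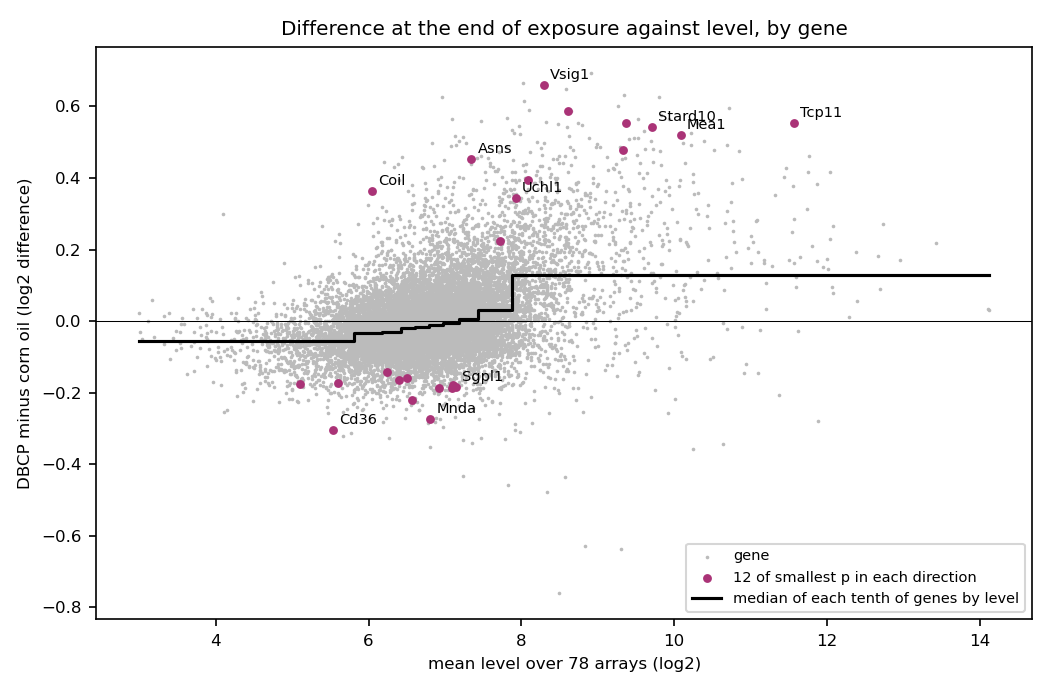
Difference between DBCP and corn oil (log2) for each gene against its mean level (log2), with the median of each of 10 classes of genes by level. The medians run from -0.06 in the lowest class to 0.13 in the highest.

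The genes with the smallest p-values in each direction are described next, beginning with those higher on DBCP arrays. The 250 bases before the start of the first 4 of them are shown from RefSeq, so that the 4 promoters can be compared by eye. They read 5' to 3' on the gene's strand in build GRCr8: Asns at chr4:36769416-36769665, minus strand, Stard10 at chr1:165134487-165134736, plus strand, Uchl1 at chr14:41849418-41849667, minus strand, and Fndc8 at chr10:68323250-68323499, plus strand. Capitals mark a GC box (GGGCGG) or a TATA box (TATAAA), read on either strand.
Asns: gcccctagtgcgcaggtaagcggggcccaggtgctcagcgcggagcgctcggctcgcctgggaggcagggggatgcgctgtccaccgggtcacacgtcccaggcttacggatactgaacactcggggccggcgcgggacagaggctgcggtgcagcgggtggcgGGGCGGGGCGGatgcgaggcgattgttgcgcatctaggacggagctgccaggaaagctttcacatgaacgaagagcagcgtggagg
Stard10: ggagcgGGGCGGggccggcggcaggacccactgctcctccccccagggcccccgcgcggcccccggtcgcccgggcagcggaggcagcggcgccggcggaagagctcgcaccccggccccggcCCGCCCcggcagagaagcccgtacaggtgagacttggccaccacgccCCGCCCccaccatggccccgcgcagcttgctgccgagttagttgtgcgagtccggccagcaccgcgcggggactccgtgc
Uchl1: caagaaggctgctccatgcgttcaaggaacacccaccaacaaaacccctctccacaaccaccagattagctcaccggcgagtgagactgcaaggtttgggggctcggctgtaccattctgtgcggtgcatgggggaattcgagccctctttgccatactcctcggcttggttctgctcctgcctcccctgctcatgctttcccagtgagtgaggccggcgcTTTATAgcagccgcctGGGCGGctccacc
Fndc8: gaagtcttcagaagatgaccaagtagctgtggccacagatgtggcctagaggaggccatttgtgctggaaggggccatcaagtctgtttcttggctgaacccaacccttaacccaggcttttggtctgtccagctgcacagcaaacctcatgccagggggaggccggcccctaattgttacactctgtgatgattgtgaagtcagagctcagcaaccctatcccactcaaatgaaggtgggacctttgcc
The Asns window held 2 GC boxes that share a base, the Stard10 window held 3, the Uchl1 window held 1 beside a TATA box, and the Fndc8 window held neither. Searched on both strands in 11968 promoters of this length, a GC box was found in 47.3%, a TATA box in 11.3%, a CCAAT box (CCAAT) in 35.6%, a cAMP response element (TGACGTCA) in 2.28% and the core of a C/EBP-ATF response element (TGATGNAA) in 2.66%. Among the 11 promoters found for the 12 genes named as higher, 9 held a GC box, 2 a TATA box, 3 a CCAAT box, and 0 held either of the last 2 motifs. Among the 10 found for the 12 genes named as lower, 3 held a GC box, 1 a TATA box and 5 a CCAAT box, and 0 held the last 2. These matches describe letters in the windows only.

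Asns encodes asparagine synthetase, which makes asparagine from aspartate and is a known target of the amino acid starvation response. Its level on corn oil arrays was 6.81 at the lowest, 7.13 at the median and 7.78 at the highest, and on DBCP arrays 7.03, 7.58 and 8.64. The groups overlapped, and 18 of 20 DBCP arrays stood above the corn oil mean. The difference was 0.45 ± 0.09 (log2, SE, n = 20 and 20), a 1.37-fold ratio, with an adjusted p of 0.103 in limma. It was 0.35 among replicate numbers 1 to 10 and 0.55 among 11 to 20, and 0.31 ± 0.08 without replicates 2, 13 and 20, where its adjusted p was 0.997. Asns passed in fits restricted to fewer probe sets, in which limma also estimated the spread anew, so the number of tests was not the only change. Its adjusted p was 0.0489 among the 15310 probe sets with 1 symbol and 0.0462 among 14506 genes. Over all 29214 probe sets Asns also passed in 7 of the 40 fits that left out 1 array. Its adjusted p was 0.0344, 0.0182, 0.0418 and 0.0206 without DBCP replicate 4, 7, 12 or 16, and 0.0228, 0.0496 and 0.0351 without corn oil replicate 4, 5 or 9.

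Stard10, a lipid transfer protein, had corn oil values of 8.55, 9.51 and 10.13 (lowest, median and highest) and DBCP values of 9.19, 10.07 and 11.16. The difference was 0.54 ± 0.12, with 17 of 20 DBCP arrays above the corn oil mean, and 0.38 ± 0.11 without the 3 arrays. Uchl1, a deubiquitinating enzyme known from germ cells and neurons, ran over 7.53, 7.87 and 8.37 on corn oil arrays and 7.84, 8.19 and 9.03 on DBCP arrays. Its difference was 0.34 ± 0.08, and 0.24 ± 0.07 without the 3 arrays. In both genes the groups overlapped and the highest DBCP values lay above every corn oil array. Fndc8, on chromosome 10, had 8.32, 9.38 and 10.03 on corn oil arrays and 9.13, 9.82 and 10.97 on DBCP arrays, a difference of 0.55 ± 0.12 that was 0.44 ± 0.12 without the 3 arrays. Mea1, male-enhanced antigen, had 9.06, 10.05 and 10.82 against 9.92, 10.57 and 11.65, a difference of 0.52 ± 0.12. All 4 genes had an adjusted p of 0.120.

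The other genes named as higher were Vsig1, a junctional membrane protein, at 0.66 ± 0.16; Coil, the scaffold of Cajal bodies, at 0.36 ± 0.09; and Tuba1c, an alpha tubulin, at 0.48 ± 0.12. Tmem53, a membrane protein, had 0.59 ± 0.14 and Tcp11, a sperm tail protein linked to capacitation, had 0.55 ± 0.14. Ace, the angiotensin-converting enzyme with a germ cell form in spermatids, had 0.40 ± 0.10, and Dedd, a death effector domain protein, had 0.22 ± 0.06. Each had an adjusted p of 0.120, and each stood above the corn oil mean on 15 to 18 of the 20 DBCP arrays. Tcp11 was the brightest, with 10.59, 11.69 and 12.47 on corn oil arrays and 11.34, 12.20 and 13.26 on DBCP arrays. Coil was the dimmest, with 5.77, 6.00 and 6.66 against 5.88, 6.26 and 7.90. Replicates 2, 13 and 20 held the 3 highest DBCP values for 5 of the 12 genes and 2 of the 3 highest for the other 7. Without these arrays all 12 kept their direction, at 0.15 to 0.44.

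**Figure D2:**
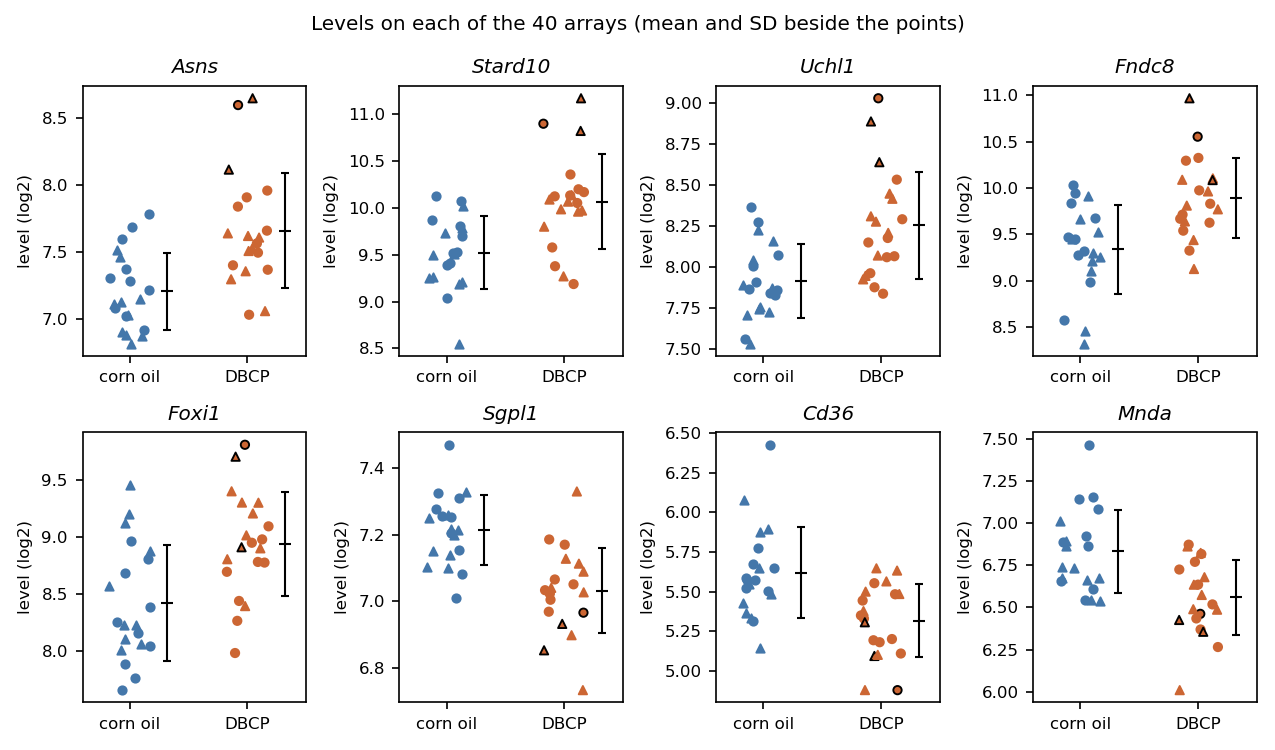
Level (log2) on each of the 40 arrays for genes named by smallest p, with circles for replicate numbers 1 to 10, triangles for 11 to 20, a black outline for DBCP replicates 2, 13 and 20, and bars for the mean and SD of each group. The groups overlap for every gene shown. The outlined points lie at the top of the DBCP arrays for Asns, Stard10 and Uchl1, and not all of them do so for Fndc8 and Foxi1.

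The genes named as lower differed by less and lay lower on the scale. Sgpl1, the lyase that breaks down sphingosine 1-phosphate, had 7.01, 7.21 and 7.47 on corn oil arrays and 6.73, 7.03 and 7.33 on DBCP arrays. Its difference was -0.18 ± 0.04 with an adjusted p of 0.120 in limma, and 19 DBCP arrays lay under the corn oil mean. It was -0.19 and -0.18 in the sets of replicate numbers and -0.16 ± 0.04 without the 3 arrays. Cd36, a scavenger and fatty acid receptor of macrophages and fat, had 5.14, 5.57 and 6.43 against 4.88, 5.34 and 5.65, a difference of -0.31 ± 0.08; its other probe set gave -0.21. Mnda, an interferon-inducible nuclear protein of myeloid cells, had 6.54, 6.80 and 7.47 against 6.01, 6.55 and 6.87, a difference of -0.27 ± 0.07. Both had an adjusted p of 0.120, and for each of them 18 DBCP arrays lay under the corn oil mean.

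Among the remaining 9, Calcrl, a receptor of adrenomedullin, was at -0.17 ± 0.05; Trps1, a GATA-type repressor, was at -0.19 ± 0.05; and Klra22, a lectin-like receptor of natural killer cells, was at -0.22 ± 0.06. The second Klra22 probe set, with a mean level of 3.15, gave -0.03. Fgf22, a growth factor, was at -0.18 ± 0.05, the ephrin receptor Epha1 was at -0.14 ± 0.04, and Myog, the muscle regulator myogenin, was at -0.16 ± 0.05. Tssc4 was at -0.16 ± 0.05, the olfactory receptor Or8h10 was at -0.17 ± 0.05 and Tm6sf1 was at -0.19 ± 0.06. Their adjusted p ran from 0.136 to 0.167. Of these 12 genes Tssc4 differed most between the sets of replicate numbers, -0.04 among 1 to 10 and -0.28 among 11 to 20, a difference between sets of -0.24 ± 0.09 with an adjusted p of 0.974. Without replicates 2, 13 and 20 all 12 genes stayed below 0, at -0.27 to -0.12.

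The 35 gene lists, with 1090 genes on the array, are described by their counts and medians, without a test of the list. No member of any list passed, the same as the 0% over all genes; counts below are at an unadjusted p under 0.05, to be set against 9.7% higher and 4.27% lower over all genes, and against 38.7% higher with a median of 0.13 in the highest level class. The sperm lists are given first. Sperm energy metabolism, the glycolytic and related enzymes of sperm, had 23 of 25 genes above 0, 11 higher, 0 lower and a median of 0.19. The fibrous sheath, outer dense fibre and capsule of the tail had 24 of 25 above 0, 11 higher, 0 lower and a median of 0.15. Sperm chromatin, the protamines, transition proteins and testis histones, had 19 of 21 above 0, 11 higher, 0 lower and a median of 0.15. Spermatid transcription and RNA control had 29 of 35 above 0, 13 higher, 0 lower and a median of 0.13. The acrosome and egg binding list had 21 of 31 above 0 and a median of 0.10 with 11 higher, channels and motility signalling had 17 of 20 above 0 and 0.08 with 6 higher and 1 lower, and the axoneme had 23 of 28 above 0 and 0.04 with 1 higher. The median level of the members was 8.38 for energy metabolism, within the highest class, whose genes had a median difference of 0.13 and 80.0% above 0. It was 7.55 for chromatin, 7.45 for spermatid transcription and 7.39 for the tail list, and 7.09, 6.77 and 6.71 for channels, acrosome and axoneme. Whether these lists differ from other genes of the same level was not tested.

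Within these lists bright transcripts differed by unequal amounts. Odf1 differed by 0.03 ± 0.03 and Smcp by 0.03 ± 0.03, with lowest values of 13.89 and 13.92 over the corn oil arrays, near the top of the range of 2.54 to 14.69. Prm1 differed by 0.17 ± 0.07, and the transition protein gene Tnp1, with a corn oil median of 10.36, differed by 0.53 ± 0.22. Akap4, the main scaffold of the fibrous sheath, had corn oil values of 8.63, 10.01 and 11.06 and DBCP values of 9.67, 10.47 and 12.30. Its difference was 0.63 ± 0.19 with an adjusted p of 0.161 in limma, and 0.42 ± 0.18 without the 3 arrays. Gapdhs, the sperm form of the glycolytic enzyme, had 9.47, 10.87 and 11.55 against 10.30, 11.33 and 12.76, a difference of 0.49 ± 0.15. Aldoa, an aldolase of sperm and body cells, was at 0.33 ± 0.09, and Atp1a4, the sperm sodium pump, was at 0.53 ± 0.15. H1f7, a spermatid linker histone, was at 0.45 ± 0.11, and Sppl2c, a spermatid protease, was at 0.55 ± 0.14. Spata18, at 0.43 ± 0.11, had 10.56, 11.59 and 12.08 on corn oil arrays against 11.32, 11.92 and 13.00.

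The sperm list medians were larger in the second set of replicate numbers than in the first, and smaller without the 3 arrays. Those arrays had the high sperm levels given above and were left out on the DBCP side only. A fall therefore follows from leaving them out and does not show what the medians rest on. Sperm energy metabolism was 0.06 among numbers 1 to 10 and 0.33 among 11 to 20, and 0.06 over all numbers without the 3 arrays. The tail list was 0.07, 0.29 and 0.06 in the same order, and spermatid transcription was 0.02, 0.26 and 0.03. The counts of higher genes over all numbers without the 3 arrays stand beside 3.01% over all genes. They were 6 for energy metabolism, 2 for the tail list, 1 for chromatin and 4 for spermatid transcription. For the acrosome, channels and axoneme they were 4, 2 and 1. Without replicate 2, the medians among numbers 1 to 10 were -0.0033 for energy metabolism, 0.03 for chromatin, 0.01 for the tail list, -0.02 for the acrosome, -0.04 for the axoneme, -0.02 for channels and -0.03 for spermatid transcription. Without replicates 13 and 20, those among numbers 11 to 20 were 0.15, 0.12, 0.15, 0.07, 0.05, 0.11 and 0.15. Lists of earlier germ cells lay near all genes: the meiosis list had 11 of 23 above 0 with 2 higher and 1 lower, and spermatogonia had 6 of 17 above 0 with 1 higher, Uchl1.

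**Figure D3:**
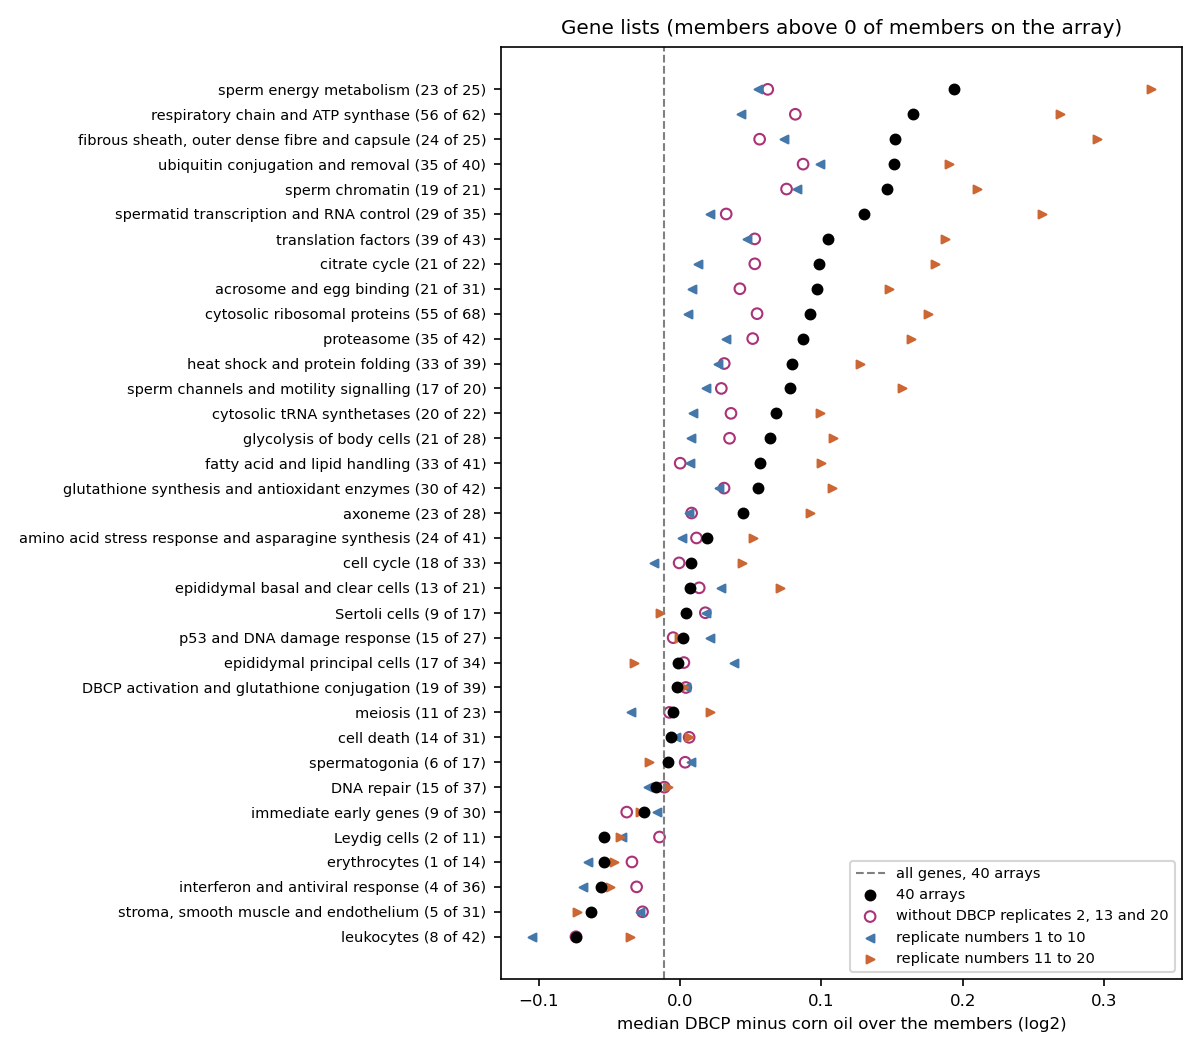
Median difference, DBCP minus corn oil (log2), of each gene list over all arrays, within each set of replicate numbers and without DBCP replicates 2, 13 and 20. Sperm energy metabolism has 0.19 over all arrays and 0.06 without the 3, and leukocytes have -0.07 with and without them.

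Genes that activate or conjugate DBCP lay near all genes in their median. The list of cytochrome P450, glutathione transferase and related genes had 19 of 39 above 0, 11 higher, 2 lower and a median of 0.00. Gstm5, a glutathione transferase abundant in sperm, had 10.29, 11.39 and 11.98 on corn oil arrays and 10.72, 11.73 and 12.63 on DBCP arrays, a difference of 0.35 ± 0.12 that was 0.24 ± 0.11 without the 3 arrays. Gsto2 was at 0.24 ± 0.08. The next 3 genes are named for their known part in handling DBCP, after their values were seen. The transferase Gstt1 was at 0.23 ± 0.10 and the epoxide hydrolase Ephx1 was at 0.26 ± 0.11. The cytochrome P450 gene Cyp2e1 was at -0.17 ± 0.06, from a corn oil mean of 6.20, below every array median. Paralogous transferases can share probes, so values of single Gstm genes are uncertain.

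Glutathione synthesis and antioxidant enzymes had 30 of 42 above 0, 13 higher, 0 lower and a median of 0.06. Mt1, a metal-binding metallothionein, had 10.44, 11.24 and 11.85 on corn oil arrays and 10.86, 11.65 and 11.96 on DBCP arrays. Its difference was 0.38 ± 0.10, higher on 17 of 20 arrays, and 0.34 ± 0.10 without the 3 arrays; its other probe set gave 0.40. Hmox2, the constitutive heme oxygenase, was at 0.37 ± 0.09, and 0.24 ± 0.08 without the 3 arrays.

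The lists of DNA damage and death lay near all genes. The p53 response had 15 of 27 above 0 with 4 higher and 1 lower, DNA repair had 15 of 37 above 0 with 3 higher and 1 lower, and cell death had 14 of 31 above 0 with 0 higher and 1 lower. Ccng1, a p53 target, was at 0.33 ± 0.10 and Ei24, another, was at 0.23 ± 0.08. Cdkn1a and Mdm2, the best known p53 targets and named after their values were seen, were at 0.03 ± 0.05 and 0.01 ± 0.05. The repair ligase Lig3 had 7.03, 7.39 and 7.80 on corn oil arrays against 7.19, 7.61 and 8.63, a difference of 0.27 ± 0.07, and the base excision enzyme Apex1 was at 0.15 ± 0.05. Bcl2a1, which restrains cell death, was at -0.14 ± 0.06, and Bak1, which promotes it, was at 0.13 ± 0.07.

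The list of amino acid stress and asparagine synthesis had 24 of 41 above 0, 5 higher, 2 lower and a median of 0.02. Eif2s1, the alpha subunit of the initiation factor phosphorylated in that response, was at 0.49 ± 0.15. Atf4, the transcription factor of the response, was at 0.08 ± 0.05 and its target Trib3 was at -0.01 ± 0.06, both named after their values were seen. The tRNA synthetases had 20 of 22 above 0, 4 higher and a median of 0.07, with Vars1 at 0.37 ± 0.11 and Wars1 at 0.27 ± 0.12. Heat shock and folding genes had 33 of 39 above 0, 8 higher and a median of 0.08, with the chaperone Clu at 0.28 ± 0.08 and the co-chaperone Bag3 at 0.28 ± 0.08. Immediate early genes, which respond to handling and stress within minutes, had 9 of 30 above 0 and a median of -0.03, with none at an unadjusted p under 0.05; Egr1 was at -0.25 ± 0.14 and Nr4a3 at -0.08 ± 0.04.

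Genes of respiration and of protein turnover stood higher with the sperm lists. The respiratory chain and ATP synthase had 56 of 62 above 0, 30 higher, 0 lower and a median of 0.16. The ATP synthase subunit Atp5f1e had 8.30, 8.92 and 9.36 on corn oil arrays and 8.82, 9.16 and 9.98 on DBCP arrays. Its difference was 0.36 ± 0.10 with an adjusted p of 0.136 in limma, and 0.28 ± 0.10 without the 3 arrays. The oxidase subunit Cox7a2 was at 0.29 ± 0.09, and its other probe set also gave 0.29. The list median was 0.04 among numbers 1 to 10, 0.27 among 11 to 20 and 0.08 without the 3 arrays, where 7 genes of the list were higher. Its members had a median level of 7.25, and those of the ubiquitin list described next had 7.46, both below the highest level class. The citrate cycle had 21 of 22 above 0, 4 higher and a median of 0.10, with Idh2 at 0.17 ± 0.08 and Mdh1 at 0.17 ± 0.07. Glycolysis of body cells had 21 of 28 above 0, 6 higher and a median of 0.06, with the enolase Eno1 at 0.31 ± 0.08. Fatty acid and lipid genes had 33 of 41 above 0, 8 higher and a median of 0.06 that was 0.00 without the 3 arrays; Acsbg2, an acyl-CoA synthetase of the testis, was at 0.48 ± 0.15.

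Ubiquitin conjugation and removal had 35 of 40 above 0, 18 higher, 0 lower and a median of 0.15, of 0.10 among numbers 1 to 10 and 0.19 among 11 to 20, and of 0.09 without the 3 arrays. Without them 5 genes of the list were higher. Uchl5, a deubiquitinase of the proteasome, had 6.06, 6.79 and 7.35 on corn oil arrays and 6.19, 7.23 and 9.31 on DBCP arrays, a difference of 0.57 ± 0.14 that was 0.34 ± 0.11 without the 3 arrays. The proteasome had 35 of 42 above 0, 12 higher and a median of 0.09, with Psma6 at 0.44 ± 0.14 and Psme3 at 0.18 ± 0.06. Translation factors had 39 of 43 above 0, 16 higher and a median of 0.10, with the elongation factor Eef1g at 0.33 ± 0.08. Without the 3 arrays 3 translation factors were higher and 1 was lower, and 7 proteasome genes were higher. Cytosolic ribosomal proteins had 55 of 68 above 0, 14 higher and a median of 0.09, which was 0.03 after quantile normalization, with Rpl11 at 0.25 ± 0.07 and Rpl32 at 0.25 ± 0.08. The median level of this list was 9.07, within the highest level class. In that class 80.0% of genes stood above 0, 38.7% were higher at an unadjusted p under 0.05 and the median was 0.13. Ribosomal protein genes have many processed copies that probes may share.

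Markers of blood cells and stroma stood lower. The leukocyte list had 8 of 42 above 0, 0 higher, 6 lower and a median of -0.07, which was -0.10 among numbers 1 to 10, -0.04 among 11 to 20 and -0.07 without the 3 arrays. Its summed level per array, given as the mean over members, was 7.54, 7.81 and 8.17 on corn oil arrays and 7.44, 7.72 and 8.04 on DBCP arrays. The groups overlapped over most of their range. Cybb, the oxidase subunit of phagocytes, had 7.45, 8.51 and 10.18 against 7.30, 8.08 and 9.15, a difference of -0.44 ± 0.16. Lyz2, the lysozyme of macrophages and neutrophils, had 9.33, 10.19 and 12.00 against 9.07, 9.88 and 10.78, a difference of -0.36 ± 0.15. Csf1r was at -0.23 ± 0.09, Cd74 at -0.21 ± 0.10, Ptprc at -0.19 ± 0.10 and the T cell marker Cd3e at -0.04 ± 0.06. The corn oil medians of these markers ran from 7.11 for Cd3e to 11.12 for Cd74. The interferon list had 4 of 36 above 0, 1 higher, 4 lower and a median of -0.06, with Rtp4 at -0.17 ± 0.05 and Ifi44l at -0.20 ± 0.07. Its median was -0.03 without the 3 arrays.

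Red cell genes had 1 of 14 above 0 and a median of -0.05, with 1 higher, the ankyrin gene Ank1 at 0.14 ± 0.06, and 3 lower. The median of this list was -0.03 without the 3 arrays. Hbb-b1 was at -0.34 ± 0.14, -0.56 among numbers 1 to 10 and -0.12 among 11 to 20. Stroma, smooth muscle and endothelium had 5 of 31 above 0, a median of -0.06 and 2 lower, beside 4.27% lower over all genes. The median was -0.03 without the 3 arrays. Fn1, fibronectin, was at -0.64 ± 0.29 and Pdgfra at -0.10 ± 0.05, while Dcn was at -0.10 ± 0.14 and Pecam1 at 0.06 ± 0.05. Principal cells of the epididymis had 17 of 34 above 0, 2 higher and a median of 0.00, with Cst8 at 0.46 ± 0.15 and Lcn2 at 0.18 ± 0.06, and the markers Crisp1 at -0.07 ± 0.16 and Adam7 at -0.10 ± 0.19. Of the other markers of these cells, Lcn5 had a higher mean on DBCP arrays, and Gpx5 and Defb22 had a lower one. Sertoli cell genes had 9 of 17 above 0 and Leydig cell genes 2 of 11, among them Lhcgr, the luteinizing hormone receptor, at 0.32 ± 0.10. Cell cycle genes had 18 of 33 above 0, with 2 higher and 1 lower.

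Basal and clear cell genes of the epididymis together had 13 of 21 above 0, 6 higher, 0 lower and a median of 0.01. Only this median lay near all genes. The 6 higher genes stand beside 9.7% over all genes, and the 4 higher without the 3 arrays stand beside 3.01%. The mean level of the list was 6.96 on corn oil arrays and 7.05 on DBCP arrays, and 17 of 20 DBCP arrays stood above the corn oil mean. Clear cells acidify the lumen through a proton pump. The 2 genes named are the members of smallest p, and their differences lay above the median of the list. Foxi1, the transcription factor that defines proton-pumping cells, had 7.66, 8.24 and 9.45 on corn oil arrays and 7.98, 8.93 and 9.81 on DBCP arrays, and 17 of 20 DBCP arrays stood above the corn oil mean. Its difference was 0.51 ± 0.14 with an adjusted p of 0.125 in limma, 0.52 among numbers 1 to 10, 0.51 among 11 to 20 and 0.42 ± 0.14 without the 3 arrays. Atp6v1b1, a subunit of the proton pump, had 6.55, 6.94 and 7.53 against 6.74, 7.27 and 7.96. Its difference was 0.30 ± 0.09, 0.25 and 0.34 in the sets, and 0.23 ± 0.09 without the 3 arrays.

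**Figure D4:**
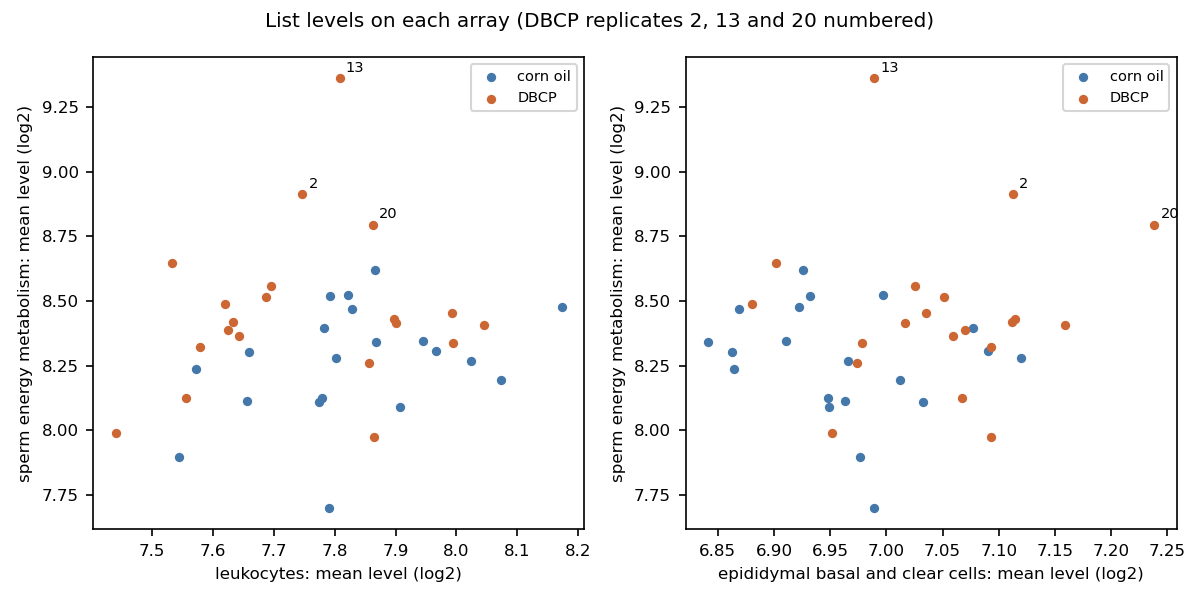
Mean level (log2) of the sperm energy metabolism genes on each of the 40 arrays against that of the leukocyte genes and of the basal and clear cell genes. DBCP replicates 2, 13 and 20 have sperm levels of 8.91, 9.36 and 8.80, above every corn oil array, and the leukocyte levels of the groups overlap.

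The leukocyte level moved with many genes, and fits with it as a covariate gave other counts. With the leukocyte level of each array as a covariate, 2500 probe sets passed, 1661 higher and 839 lower, and with the principal cell level added 2158 passed (7.39%), 1455 higher (4.98%) and 703 lower (2.41%). With the principal cell level alone 0 passed. The slopes in these fits came from all 78 arrays. In the fit with both levels restricted to the 40 arrays 166 passed, 145 higher and 21 lower, without DBCP replicates 2, 13 and 20 there were 71, and within either set of replicate numbers there were 0. Both levels are built from the same arrays and the leukocyte level itself stood lower by -0.08 on DBCP arrays, so what part of these calls follows the cell content of the samples was not tested.

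In the fit with both levels over 78 arrays, 1068 genes (7.36%) passed higher and 283 (1.95%) passed lower. The genes of smallest p in that fit were Macroh2a1, a variant histone, at 0.33 ± 0.06 against 0.22 ± 0.09 without covariates; Nherf1, a membrane scaffold, at 0.41 ± 0.07 against 0.34 ± 0.09; and Gltp, a glycolipid transfer protein, at 0.40 ± 0.07 against 0.34 ± 0.09. Rab11b, a recycling endosome GTPase, was at 0.53 ± 0.10 against 0.44 ± 0.12, and Gpi, a glycolytic isomerase, was at 0.48 ± 0.08 against 0.38 ± 0.11. These 5 had an adjusted p of 0.00207 in that fit and 0.120 to 0.302 in the fit without covariates. Without covariates and without the 3 arrays they stood at 0.18 to 0.32. On the lower side were Mug2 at -0.25 ± 0.06, Klra22 at -0.26 ± 0.06, Vsig2 at -0.20 ± 0.05, Mettl7b at -0.17 ± 0.04 and Tssc4 at -0.19 ± 0.05. In the same fit Asns was at 0.47 ± 0.09, and among lists 24 of 62 respiratory chain genes, 17 of 40 ubiquitin genes and 21 of 68 ribosomal protein genes passed higher.

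The sets of replicate numbers share no array, so each gives its own estimate for every gene. Across 14506 genes, which are not independent replicates, the differences correlated with Pearson's r of 0.567 and Spearman's rho of 0.432. At an unadjusted p under 0.05, 528 genes were counted among numbers 1 to 10, of which 394 (74.6%) had the same sign among 11 to 20. Of 1809 genes counted among 11 to 20, 1413 (78.1%) had the same sign among 1 to 10. For all genes the share with the same sign was 64.5%. Counted in both were 66 genes, 61 with the same sign. These correlations and shares are given with all arrays only. The DBCP arrays that stood apart, with their high sperm levels, lie in both sets. Without those arrays, the sperm list medians ran from -0.04 to 0.03 among numbers 1 to 10 and from 0.05 to 0.15 among 11 to 20. How much of the likeness between the sets rests on those arrays was not tested. The difference between the sets was itself tested with an interaction term over the 40 arrays: 0 of 29214 probe sets passed, the lowest adjusted p was 0.764, and 1257 had an unadjusted p under 0.05. For Asns the difference between sets was 0.20 ± 0.22 with an adjusted p of 0.974.

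**Figure D5:**
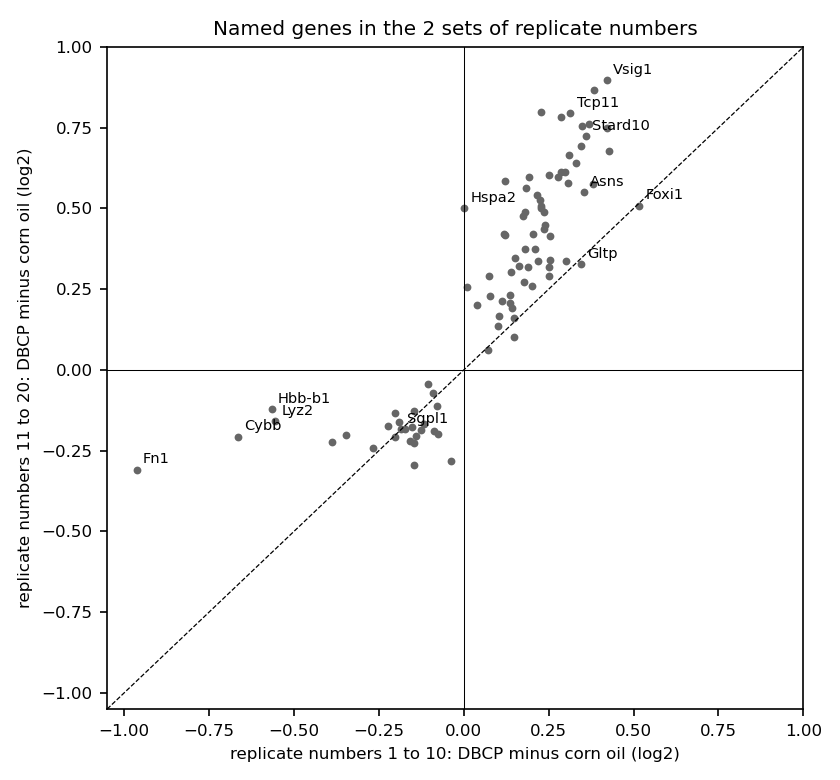
Difference between DBCP and corn oil (log2) among replicate numbers 1 to 10 against that among 11 to 20. Only the 92 named genes are drawn, without those named only as markers, and some are labelled. The correlation of 0.567 is across all 14506 genes, most of which are not drawn. It includes the DBCP arrays that stood apart, which lie in both sets. Foxi1 has 0.52 and 0.51.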

How the data were processed

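The deposited table, processed by the authors, holds log2 values for 29214 probe sets of 78 arrays with 0 missing values; the sources used here do not give how background was corrected and values were normalized, and the submitters' processing notes name limma without a version. Gene names came from the platform annotation: 15310 probe sets had 1 symbol, 323 several and 13581 none, and 15279 of the first matched the reference gene table by Entrez ID. Groups came from the labels. limma 3.58.1 in R 4.3.3 fitted the means of 4 groups to all 78 arrays with eBayes; the contrast was DBCP minus corn oil, with Benjamini-Hochberg adjustment over all probe sets and a threshold of 0.05. The median SE was 0.06 on the log2 scale. Precision is limited by how many arrays there are. The code was tested on simulated data.

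Named genes were the 12 of smallest p in each direction, the 2 of smallest p in each list, genes passing in alternatives with 5 or fewer calls (Asns and Stard10), and 5 in each direction from the fit with 2 covariates; cell type markers were added. Members, lists and the fits with covariates were chosen with earlier results of these data known, and those restricted to sets of arrays, and the interaction, after seeing the data. Equal replicate numbers were not treated as pairs in the main fit. Of 20 pairs, 9 had deviations correlated above 0.1, with a median of 0.06 and a highest of 0.568. Among the DBCP arrays, 4 correlated best with the corn oil array of their own number. Whether equal numbers pair the samples was not tested. Alternatives changed the arrays, scaling, filter, covariates, weights and block.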

Additional observations from a re-analysis of the deposited data

How the results depend on the processing

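The count of 0 passing probe sets held with the 40 arrays alone, with quantile normalization, median centring, trend and robust options, array weights, a plain 2-sample fit, an adjusted p of 0.10, a term for the set of replicate numbers, each set alone, the principal cell level as covariate, and without DBCP replicates 2, 13 and 20. It was 1 among probe sets with 1 symbol and 1 with 1 probe set per gene, 206 in the top 10% by mean, 2500 with the leukocyte level and 2158 with both levels as covariates, 166 with both levels in the 40 arrays and 71 with both levels without the 3 arrays. Leaving out each array gave 0 to 14.

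The count of 3386 at an unadjusted p under 0.05 was 2242 of 14607 above the median level, 777 of 2922 in the top 10%, 2149 of 15310 with 1 symbol and 2039 of 14506 with 1 probe set per gene; these test fewer probe sets. It was 987 among replicate numbers 1 to 10, 1089 without the 3 arrays, 8578 with the leukocyte level, 8239 with both levels and 6577 with both in the 40 arrays. Leaving out each array gave 2373 to 4138. With the replicate number as a block, 0 passed and 3695 had an unadjusted p under 0.05. The causes were not tested.

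None of 92 named genes changed sign in any alternative. These genes were chosen by small p in the same data, which favours a stable sign. Genes named only as markers or after their values were seen were not counted. Among those markers, Adam7, Gpx5, Defb22, the leukocyte marker Tyrobp, Acta2 and Amh changed sign between the sets of replicate numbers. Of 35 list medians, 12, from -0.07 to 0.02, changed sign in at least 1 alternative. Within the sets of replicate numbers without the 3 arrays, 14 list medians, from -0.05 to 0.19, changed sign. In all, 226 values of named genes passed only in alternatives. Scanner data and signal over background were not analysed here.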

Other observations

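The genes with the largest differences in size, chosen after their values were seen, were mostly not those of smallest p. Lowest was Prg4, a lubricating proteoglycan of surfaces, with 6.98, 8.92 and 10.93 (lowest, median and highest) on corn oil arrays and 6.53, 8.06 and 9.44 on DBCP arrays, a difference of -0.76 ± 0.30 with an adjusted p of 0.293 in limma. Slpi, a secreted protease inhibitor, was at -0.63 ± 0.22, and the macrophage and lymphatic genes Lyve1, Ccl24 and Adgre4 were at -0.48 ± 0.17, -0.46 ± 0.18 and -0.35 ± 0.13. The complement gene C6 was at -0.43 ± 0.17. These genes kept the lower direction in both sets of replicate numbers, with Prg4 at -0.92 among 1 to 10 and -0.60 among 11 to 20, and Lyve1 at -0.67 and -0.28.

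Highest was Spata19, a sperm mitochondrial protein, with 7.47, 9.20 and 10.77 on corn oil arrays and 8.23, 9.70 and 12.14 on DBCP arrays, a difference of 0.69 ± 0.25 that was 0.40 without DBCP replicates 2, 13 and 20. Fabp12, a fatty acid binding protein, was at 0.67 ± 0.19 and 0.39 without them, and Ubqlnl was at 0.60 ± 0.16 and 0.43.

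The spread among arrays differed between the groups. The ratio of the SD on DBCP arrays to that on corn oil arrays had a median of 1.10 over genes and was above 1 for 65.1%. Without the 3 arrays the ratio was 0.935 and 39.6% of genes had the larger SD on DBCP arrays. Among the 20 autosomes, the share of genes above 0 ran from 36.9% on chromosome 11 to 56.7% on chromosome 19, and was 46.1% on X, against 44.7% over all genes.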
